A study of Mus musculus with 8 samples.

Results

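The response of autophagy deficient melanocytes to long-wave ultraviolet light is described here from 4 of the 8 arrays of the series: 2 arrays of Atg7 f/f Tyr::Cre cells exposed to 20 J/cm2 UVA-1 and 2 arrays of sham treated cells of the same genotype. All 22180 genes with a probe set of their own were compared between them. Melanocytes, the pigment cells of the skin, had been isolated from pups aged 1 to 5 days and kept in culture for 22 days, and RNA was taken 6 h after treatment; the samples carry the sex label female. Both genotypes of the series carry floxed Atg7 alleles. In the KO cells the tyrosinase promoter also drives Cre, so the gene is deleted in cells that use this promoter, and any other cell type in the culture would keep it. The Atg7 f/f cells without Cre (WT, 2 sham and 2 UVA arrays) entered the fit and serve as the comparison. Duplicates are numbered 1 and 2 in every group, and UVA and sham arrays of one number were paired. The submitters call the arrays biological duplicates, without stating which culture, litter or day a number marks. P-values measure the spread of the paired UVA minus sham differences within KO and within WT, with variance shared across genes. The spread between duplicate arrays of one group does not enter them.

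UVA-1 is weakly absorbed by DNA itself and acts largely through photosensitisers inside the cell, which pass its energy on to oxygen and so oxidise lipids, proteins and thiols. Cells answer such stress with several transcription programmes. Misfolded proteins release HSF1, which turns on chaperones such as the HSP70 proteins. Modified thiols on KEAP1 release NRF2, which turns on the enzymes that make and recycle glutathione. ATF4 is translated when the kinases of the integrated stress response are active, and it induces amino acid transporters and ATF3. Autophagy bears on these programmes because the E1-like enzyme ATG7 is needed to lipidate the LC3 proteins, and because the autophagy receptor p62 (Sqstm1), which autophagy degrades, binds KEAP1.

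The array medians lay between 110 and 115 on the linear intensity scale. The sham and UVA array of one number correlated at r = 0.996 across genes in both KO pairs, whereas the 2 KO sham arrays correlated at 0.977 and the 2 KO UVA arrays at 0.978. The probe set for Atg7 read 831 in sham and 804 in UVA for KO number 1, and 598 and 602 for KO number 2, against 832 to 1004 in the 4 WT arrays. It therefore did not separate KO from WT widely, and the table used here does not say whether its probes lie in the deleted part. All 10 melanocyte markers (Tyr, Tyrp1, Dct, Pmel, Mlana, Mitf, Sox10, Kit, Ednrb and Mc1r) read at least 8 on the log2 scale in every KO array, and so did all 12 fibroblast markers. The median fibroblast marker was 12.07 in sham and 11.80 in UVA for number 1, and 10.69 and 10.41 for number 2. The median melanocyte marker was 10.70 and 10.75 for number 1, and 11.68 and 11.68 for number 2. The log2 of the summed intensity in KO sham was 15.72 for melanocyte and 15.70 for fibroblast markers in number 1, and 16.24 and 14.56 in number 2. The share of fibroblasts, which would keep Atg7, was not tested. Keratinocyte, myeloid, mast, endothelial and skeletal muscle markers had medians of 4.98 to 7.19, and Schwann cell markers, some of which melanocytes share, of 8.68 to 9.15. In bulk RNA, fewer cells of a type and less RNA per cell cannot be told apart.

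Of the 33 genes that passed a test in KO (below), 22 have a promoter window, from 250 bases before to 50 after the start, in the RefSeq table used (GRCm38.p6; 24 windows in all). The sequences shown are those of the 2 genes that passed over all genes, of the most responsive cystine transporter gene and of the gene for the glutathione synthesis regulator. Capitals mark the heat shock element core GAANNTTC in Hspa1a (chr17:34972107-34972406, minus strand) and Hspa1b (chr17:34959189-34959488, minus strand), the ATF4 site TTGCATCA in Slc7a11 (chr3:50443564-50443863, minus strand), and the antioxidant response element TGACNNNGC in Gclm (chr3:122245307-122245606, plus strand), read 5′ to 3′ in the direction of the gene with matches on either strand.

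Hspa1a: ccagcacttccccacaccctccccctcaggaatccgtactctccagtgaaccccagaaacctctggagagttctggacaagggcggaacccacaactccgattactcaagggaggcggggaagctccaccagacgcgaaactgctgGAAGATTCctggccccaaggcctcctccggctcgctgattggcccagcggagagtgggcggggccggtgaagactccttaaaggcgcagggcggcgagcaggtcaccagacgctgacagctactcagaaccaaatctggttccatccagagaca
Hspa1b: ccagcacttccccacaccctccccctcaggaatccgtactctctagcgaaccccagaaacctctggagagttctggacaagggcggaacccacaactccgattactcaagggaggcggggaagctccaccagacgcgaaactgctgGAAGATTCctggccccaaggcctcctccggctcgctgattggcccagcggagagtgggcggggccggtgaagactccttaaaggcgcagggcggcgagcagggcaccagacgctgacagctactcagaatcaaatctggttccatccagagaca
Slc7a11: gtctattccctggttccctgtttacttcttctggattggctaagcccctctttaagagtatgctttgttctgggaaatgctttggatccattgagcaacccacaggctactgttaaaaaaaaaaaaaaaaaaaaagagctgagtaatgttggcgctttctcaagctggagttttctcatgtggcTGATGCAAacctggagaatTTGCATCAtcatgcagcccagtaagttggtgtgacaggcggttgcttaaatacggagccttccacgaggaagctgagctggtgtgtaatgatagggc
Gclm: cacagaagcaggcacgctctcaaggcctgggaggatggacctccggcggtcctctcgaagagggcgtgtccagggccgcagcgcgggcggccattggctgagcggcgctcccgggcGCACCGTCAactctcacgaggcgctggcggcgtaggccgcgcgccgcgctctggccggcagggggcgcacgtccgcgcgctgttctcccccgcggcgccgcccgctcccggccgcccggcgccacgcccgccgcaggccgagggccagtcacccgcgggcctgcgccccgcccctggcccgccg

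The windows of Hspa1a and Hspa1b were identical at 296 of 300 bases (98.7%), with a longest identical run of 201 bases. Each holds the heat shock core at bases -104 to -97 from the start. The ATF4 site stands in the Slc7a11 window once on each strand, at -66 to -59 and at -47 to -40, and the Atf3 window holds it once, at -110 to -103. The Gclm match, on the opposite strand, lies at -134 to -126. Of the 24 windows of the 33 genes, 2 held the ATF4 site, against 0.895% of all 32851 windows. The heat shock core was found in 6 (7.86% of all windows), the antioxidant response element in 5 (12.392%), the AP-1 site TGANTCA in 4 (7.808%) and the CRE TGACGTCA in 0 (1.79%). Heat shock cores also stood in Adh7 and Hspb8, which were higher, and in Ankrd1 and 1700091H14Rik, which were lower. The antioxidant response element stood in Gclm, Procr and a Txnrd1 window, genes that were higher, and in Ankrd1 and Slitrk6, which were lower. The windows of Nqo1, Slc7a11 and Taldo1 held no match to it. In Procr and Slitrk6 the antioxidant match overlaps an AP-1 match. Several of the 24 windows belong to one gene or, as with Hspa1a and Hspa1b, to near-identical copies, and a match describes letters, not binding.

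The response was small for most genes and strong for few. The difference between UVA and sham (log2, mean of the 2 pairs) had a median of -0.002, and the 1st and 99th percentiles were -0.379 and 0.351. Only 4 genes had a mean difference above 1, a doubling, and 1 lay below -1. After limma with Benjamini-Hochberg adjustment over all 22180 genes, 2 genes rose past an adjusted p of 0.05 (0.00902% of genes) and 0 fell (0%; the smallest adjusted p among lower genes was 0.117). At an unadjusted p under 0.05, 903 genes were higher (4.07%) and 981 lower (4.42%). With dim genes left out (mean log2 level under 6), 18 of 16408 genes were higher (0.11%) and 15 lower (0.0914%) at an adjusted p of 0.05; these 33 genes are called below the genes that passed with dim genes left out. The 2 genes that passed over all genes are among them.

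Agreement between the pairs rose with the level of the gene. Across all genes the differences of pair 1 and pair 2 correlated at r = 0.092, and 49.3% of genes had the same sign in both. Across the 6208 genes with a mean log2 level of at least 9 the correlation was 0.404. Genes are not independent replicates, and each pair shares its arrays' normalisation. The KO pairs also resembled the WT pairs of the same number: for those brighter genes, r was 0.651 between KO 1 and WT 1 and 0.543 between KO 2 and WT 2, both above the 0.404 between the KO pairs. Between unlike numbers r was 0.411 (KO 1 and WT 2) and 0.394 (KO 2 and WT 1). A difference of at least 0.25 in the same direction in both KO pairs was found for 259 genes upward (1.17%) and 330 downward (1.49%), and this count is used for the gene lists below. The shares of all genes set beside the lists include dim genes, of which the lists hold few. A mean log2 of at least 6 was reached by 16408 of 22180 genes, but by 24 of 25 NRF2 targets and 19 of 19 heat shock genes. Shares over genes of like level were not computed. Both UVA arrays lay above both sham arrays for 2019 genes (9.1%) and below both for 2100 (9.47%). Of the 33 genes, 20 had such separated arrays, which their choice by the KO difference favours.

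**Figure D1:**
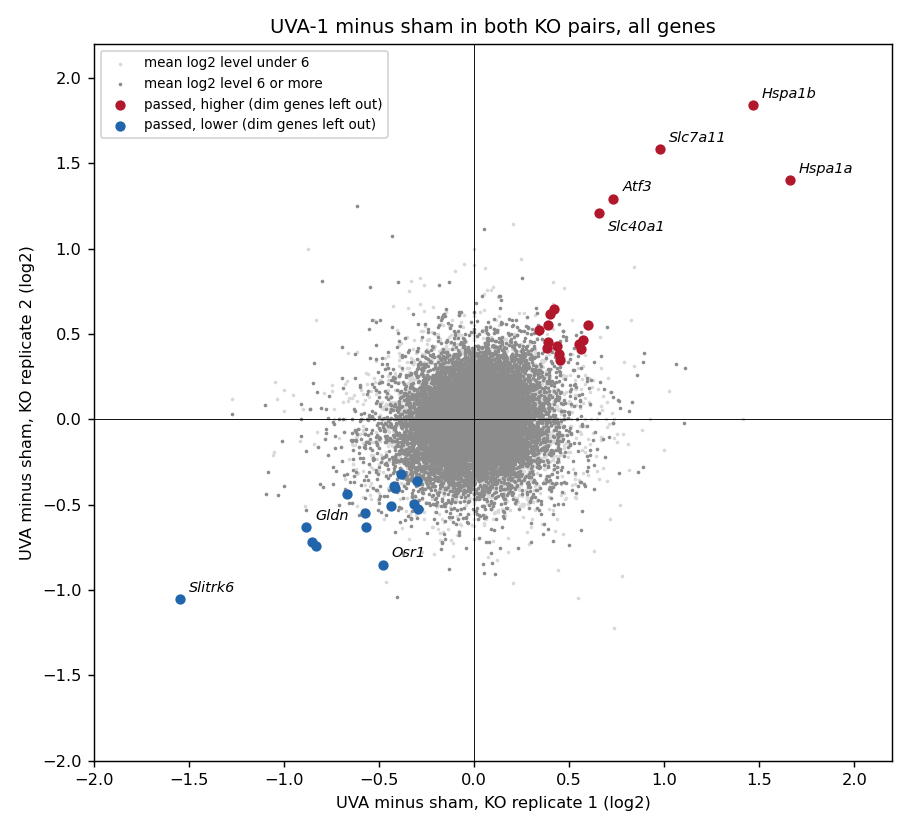
Each point is one of 22180 genes, placed by its UVA minus sham difference (log2) in KO replicate 1 (horizontal) and KO replicate 2 (vertical); light and dark grey mark mean log2 levels under 6 and of 6 or more, and red and blue mark the 18 higher and 15 lower genes that passed with dim genes left out. The grey cloud has no clear slope (r = 0.092), while Hspa1a, Hspa1b, Slc7a11 and Atf3 lie far out in the upper right and Slitrk6 in the lower left.

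The strongest response was that of the inducible HSP70 genes, whose products refold damaged proteins. Hspa1a had an intensity of 519 in sham and 1640 in UVA for number 1, and of 875 and 2314 for number 2. Hspa1b read 733 and 2024, and 811 and 2912. In both genes each UVA array lay above both sham arrays. Hspa1a rose 2.89-fold (log2 1.53, SE 0.08, n = 2 pairs, limma adjusted p = 0.000933) and Hspa1b 3.15-fold (1.655, SE 0.10, adjusted p = 0.00107). The coding sequences are near-identical copies, so probes for one may read transcripts of the other, and the 2 values are not independent. The call needs the pairing and the shared variance: without the replicate block the adjusted p was 1, without a variance trend 0.067, with KO arrays alone 0.747, and with any one pair left out between 0.686 and 0.767; the log2 difference was 1.40 to 1.84 in every setting run.

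Other heat shock genes had smaller differences. Of the 19 measured genes of the list, 17 were higher in both pairs and 0 were lower in both, against 23.8% and 25.5% of all genes. Past 0.25 in both were 5 (26.3%, against 1.17% of all genes). Hspb8, a small heat shock protein that works with BAG3 in selective autophagy of misfolded proteins, read 1690 and 2207, then 1835 and 2453 (log2 0.40, SE 0.06), and passed with dim genes left out (adjusted p = 0.0299; 0.184 over all genes). Hsph1, an HSP110 exchange factor for HSP70, differed by 0.28 and 0.54, and Dnajb4, a J-domain partner of HSP70, by 0.47 and 0.49; neither passed (adjusted p over all genes 0.325 and 0.391). The constitutive member Hspa8 differed by 0.12, and Hsp90aa1, an HSP90 gene, by 0.10. The list median was 0.19, against -0.002 for all genes. Chaperones of the endoplasmic reticulum had a list median of 0.007, with 0 of 19 genes past 0.25 in both pairs.

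NRF2 targets formed the list with the highest median, 0.29. Of its 25 measured members 11 were higher and 1 lower by 0.25 in both pairs (44% and 4%, against 1.17% and 1.49% of all genes). At any size, 21 were higher in both (84%, against 23.8% of all genes). With dim genes left out 8 passed, and 0 passed over all genes. Slc7a11, the cystine transporter that supplies the cysteine for glutathione, had the largest difference: it read 1561 in sham and 3070 in UVA for number 1, and 1087 and 3258 for number 2. Both UVA arrays lay above both sham arrays. The mean difference was 1.28 (2.43-fold, SE 0.19; adjusted p = 0.163 over all genes and 0.00491 with dim genes left out).

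The subunits of glutamate-cysteine ligase, the first enzyme of glutathione synthesis, moved together. The modifier subunit gene Gclm read 4744 and 6949, then 6437 and 8730 (log2 0.495, SE 0.05; adjusted p = 0.0686 over all genes and 0.00216 with dim genes left out). The catalytic subunit gene Gclc read 2295 and 3386, then 1910 and 2538 (0.49, SE 0.06; 0.117 and 0.00606). Gsr, which reduces oxidised glutathione, differed by 0.42, Txnrd1, which reduces thioredoxin, by 0.43, and Taldo1, an enzyme of the pentose phosphate pathway that feeds NADPH production, by 0.41. These 3 passed with dim genes left out (adjusted p = 0.0499, 0.0296 and 0.0315). The quinone reductase gene Nqo1 read 1382 and 1810, then 2657 and 3907 (0.47, SE 0.07; 0.0179 with dim genes left out); its sham arrays differ so much that number 2 sham exceeds number 1 UVA.

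Other members gave values that did not pass either test. Osgin1 differed by 0.395, Blvrb, a biliverdin reductase, by 0.40, Srxn1, which repairs peroxiredoxins, by 0.29 and Pgd by 0.24. Fth1, the ferritin heavy chain, stood at 0.02 and Me1 at 0.08. Gsta4 was uneven, at 0.83 in pair 1 and 0.105 in pair 2. Gpx2 differed by -0.50 and -0.30, at intensities of 26 to 41, which are close to the dim end of the arrays. The wider list of glutathione, thioredoxin and peroxidase genes had a median of -0.033, with 13 of 28 genes lower in both pairs and 10 higher. The shares were 46.4% and 35.7%, against 25.5% and 23.8% of all genes. Of the 28, 4 (Gclc, Gclm, Gsr and Txnrd1) passed with dim genes left out. Catalase (Cat) differed by 0.24, Sod1 by 0.13 and the extracellular Sod3 by -0.25, none past the test.

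Genes of heme and iron handling included 2 that passed with dim genes left out. Hmox1, the heme oxygenase that frees iron from heme, read 8823 and 12063, then 8495 and 10833 (0.40, SE 0.055; adjusted p = 0.00606, and 0.138 over all genes). Slc40a1, ferroportin, the only known exporter of iron from cells, read 180 and 284, then 141 and 326 (0.93, SE 0.16; 0.026 and 0.252). The UVA arrays of both genes lay above their sham arrays. The heme exporter gene Flvcr1 differed by 0.32 (adjusted p = 0.372). Adh7, an alcohol dehydrogenase that also oxidises retinol and lipid aldehydes, read 2010 and 2985, then 5934 and 8186; its 2 pairs, at 0.57 and 0.46, gave an adjusted p of 0.0828 over all genes and 0.00373 with dim genes left out.

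**Figure D2:**
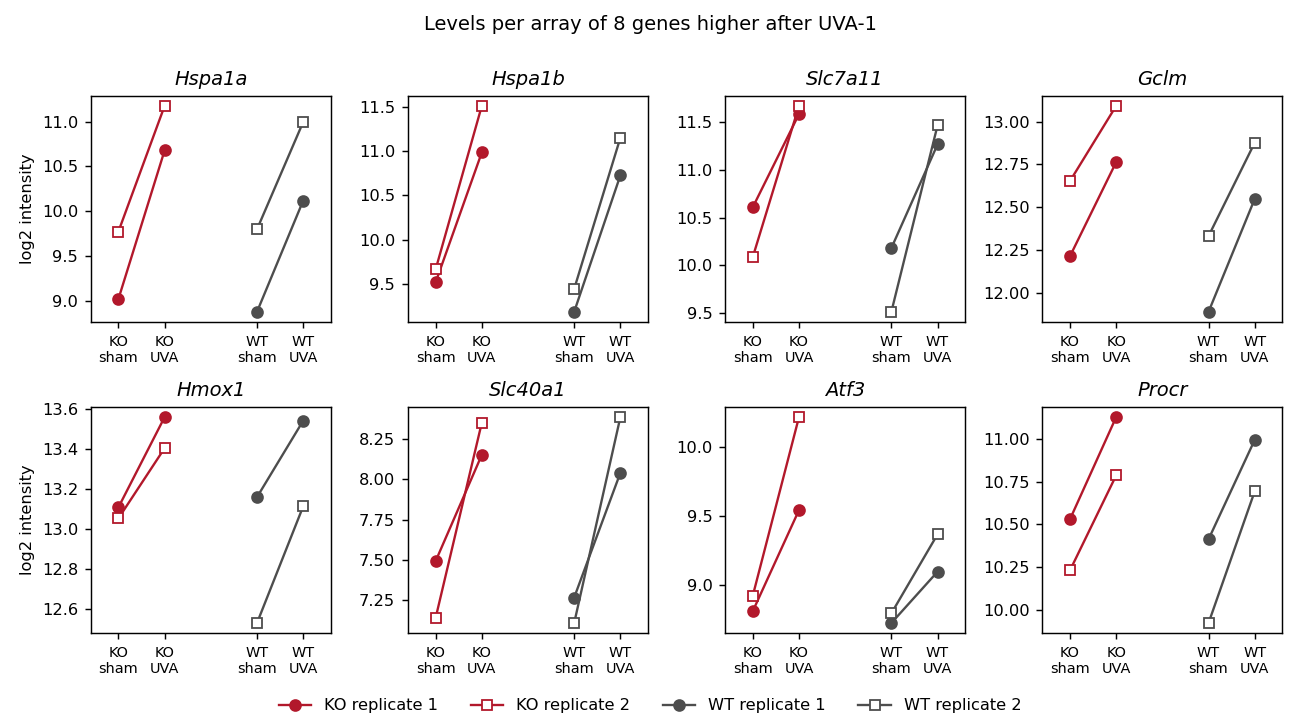
Log2 intensity of 8 genes that were higher after UVA-1, 1 panel each, with KO arrays on the left in red and WT arrays on the right in grey; a line joins the sham and UVA array of one replicate number (filled for 1, open for 2). Every KO line slopes upward, and in Hspa1a the intensity goes from 519 to 1640 and from 875 to 2314.

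Within the fixed list of ATF4 targets, which does not hold Slc7a11, Atf3 had the largest difference. ATF3 is a stress-induced transcription factor that mostly represses its targets. It read 448 in sham and 744 in UVA for number 1, and 484 and 1187 for number 2, with no overlap. The mean difference was 1.01 (2.02-fold, SE 0.13; adjusted p = 0.117 over all genes and 0.00373 with dim genes left out). Ppp1r15a, which encodes the phosphatase subunit GADD34 that switches the integrated stress response off, differed by 0.48 in both pairs (adjusted p = 0.295), and Ddit3, the gene of the factor CHOP, by 0.40 and 0.29 (0.306). Atf4 itself differed by 0.31 and 0.04, Asns, asparagine synthetase, by -0.08 and 0.09, Trib3 by 0.38 and -0.08, and Chac1, which degrades glutathione, by 0.00 and 0.23. None of these passed. The list median was 0.063, with 3 of 26 genes higher by 0.25 in both pairs (11.5%, against 1.17% of all genes).

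Immediate early genes, which encode short-lived regulators, had 4 of 42 members past 0.25 upward in both pairs (9.52%, against 1.17% of all genes). Downward there were 0, and none passed. Fosb had the largest mean difference, 0.71, but it came from pair 1 (238 in sham and 514 in UVA) more than pair 2 (156 and 192). Gadd45b, a stress sensor, differed by 0.32 and 0.65, Dusp10, a phosphatase of the stress kinases JNK and p38, by 0.56 and 0.30, and Csrnp1 by 0.27 and 0.48. Zfp36, which destabilises cytokine messages, differed by 0.26 and Ier3 by 0.26. The list median was 0.047.

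Among p53 targets, Trp53inp1, a p53-induced protein that also binds LC3, read 1060 and 1397, then 1383 and 2125 (0.51, SE 0.07; adjusted p = 0.0168 with dim genes left out and 0.163 over all genes). Cdkn1a, which encodes the cell cycle inhibitor p21, read 8443 and 9570, then 8573 and 9855 (0.19, adjusted p = 0.525). Mdm2, the ligase that limits p53, differed by 0.22, Plk2 by 0.32, Pmaip1, the gene of the death protein NOXA, by 0.40, and Sesn2 by 0.22. None of these 5 passed. The list had 3 of 27 members past 0.25 upward in both pairs (11.1%, against 1.17% of all genes), 0 downward and a median of 0.056.

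The remaining higher genes that passed with dim genes left out were surface or trafficking genes. Procr, the endothelial protein C receptor, read 1479 and 2238, then 1202 and 1767 (0.58, SE 0.07; adjusted p = 0.0049, and 0.105 over all genes), with separated arrays. Pvr, the adhesion molecule CD155 and a ligand of natural killer cell receptors, read 4270 and 5771, then 2099 and 2826, with nearly equal differences of 0.435 and 0.43 (0.0049 and 0.0828). Dennd5b, a regulator of Rab proteins in vesicle traffic, read 255 and 341, then 505 and 791 (0.53, SE 0.09; 0.0499 and 0.248). Among the 10 higher genes that follow the 2 called genes by their smaller paired difference were also Slc22a4, a transporter of the antioxidant ergothioneine, at 0.70 and 0.54, Ddit4l, an inhibitor of mTOR signalling, at 0.56 and 0.515, and Trib1, a pseudokinase, at 0.56 and 0.47. These 3, like Zfp955a and the olfactory receptor gene Olfr566 (51 and 74, then 56 and 79), passed neither test.

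The largest lower value was that of Slitrk6, a neuronal membrane protein that steers neurite growth. It read 348 in sham and 119 in UVA for number 1, and 655 and 316 for number 2. Both UVA arrays lay below both sham arrays. The mean difference was -1.30 (0.406 of the sham level, SE 0.17; adjusted p = 0.117 over all genes and 0.00373 with dim genes left out). Kcna1, a voltage-gated potassium channel, read 180 and 101, then 328 and 196 (-0.79, SE 0.15; 0.0499 with dim genes left out). Gldn, gliomedin, a matrix protein of the nodes of Ranvier, read 288 and 156, then 313 and 202 (-0.76, SE 0.12; 0.0242). The uncharacterised 1700091H14Rik read 103 and 57, then 92 and 56 (-0.785, SE 0.12; 0.0185).

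Another 5 lower genes passed with dim genes left out. Tubb3, the beta tubulin typical of neurons, read 630 and 396, then 770 and 570 (-0.55, SE 0.09; adjusted p = 0.0289 with dim genes left out), and Tubb6, another beta tubulin, differed by -0.41 (0.040). Ncam1, the neural cell adhesion molecule, read 4654 and 3778, then 5952 and 4643 (-0.33, SE 0.05; 0.0275). Klhdc8a differed by -0.56 (0.0321). Dkk2, an inhibitor of WNT signalling that binds LRP co-receptors, differed by -0.42 and -0.39 (0.0266). Ngfr, the low-affinity neurotrophin receptor and a Schwann cell marker here, differed by -0.455 and did not pass (0.0812). The Schwann cell marker list had 5 of 8 genes lower in both pairs (62.5%, against 25.5% of all genes) and a median of -0.072. The part of this list in these values was not tested. Other genes ranked by their smaller paired difference passed neither test. Eya4, a transcriptional cofactor and phosphatase, at -0.58, Abcd2, a peroxisomal fatty acid transporter, at -0.71, Mgp, matrix Gla protein, at -0.56, and Gm2427, at -0.52, had negative differences in both pairs.

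Of 25 genes of sterol and fatty acid synthesis, 15 were lower in both pairs (60%, against 25.5% of all genes). Only 1 was higher in both (4%, against 23.8%), 3 were past -0.25 in both (12%, against 1.49%), and the median was -0.12. Members that passed with dim genes left out were Mvd, which makes isopentenyl pyrophosphate (594 and 438, then 879 and 619; -0.47, SE 0.08; adjusted p = 0.0427), Hmgcs1, which makes HMG-CoA (-0.35; 0.0499), and Elovl6, a fatty acid elongase (-0.41; 0.0395). Lss and Fdft1, of the later sterol steps, differed by -0.30 and -0.27, and Fasn, fatty acid synthase, by -0.18, without passing.

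Among YAP-TEAD targets, genes induced through mechanical and adhesion signals, Ankrd1 read 4234 and 2855, then 651 and 420. Its differences, -0.57 and -0.63, were alike although the sham levels of the 2 numbers were far apart, and it passed with dim genes left out (adjusted p = 0.00633, and 0.118 over all genes). Amotl2 and Nuak2 differed by -0.295 and -0.33, and Ccn2, connective tissue growth factor, by -0.70 and -0.16, without passing. Of the 15 targets, 10 were lower in both pairs and 2 higher (66.7% and 13.3%, against 25.5% and 23.8% of all genes). Osr1, a transcription factor of mesenchymal cells, read 2946 and 2111, then 1330 and 738 (-0.665, SE 0.09; 0.00606 with dim genes left out). Fst, follistatin, an antagonist of activin, differed by -0.405 and -1.04 and did not pass.

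**Figure D3:**
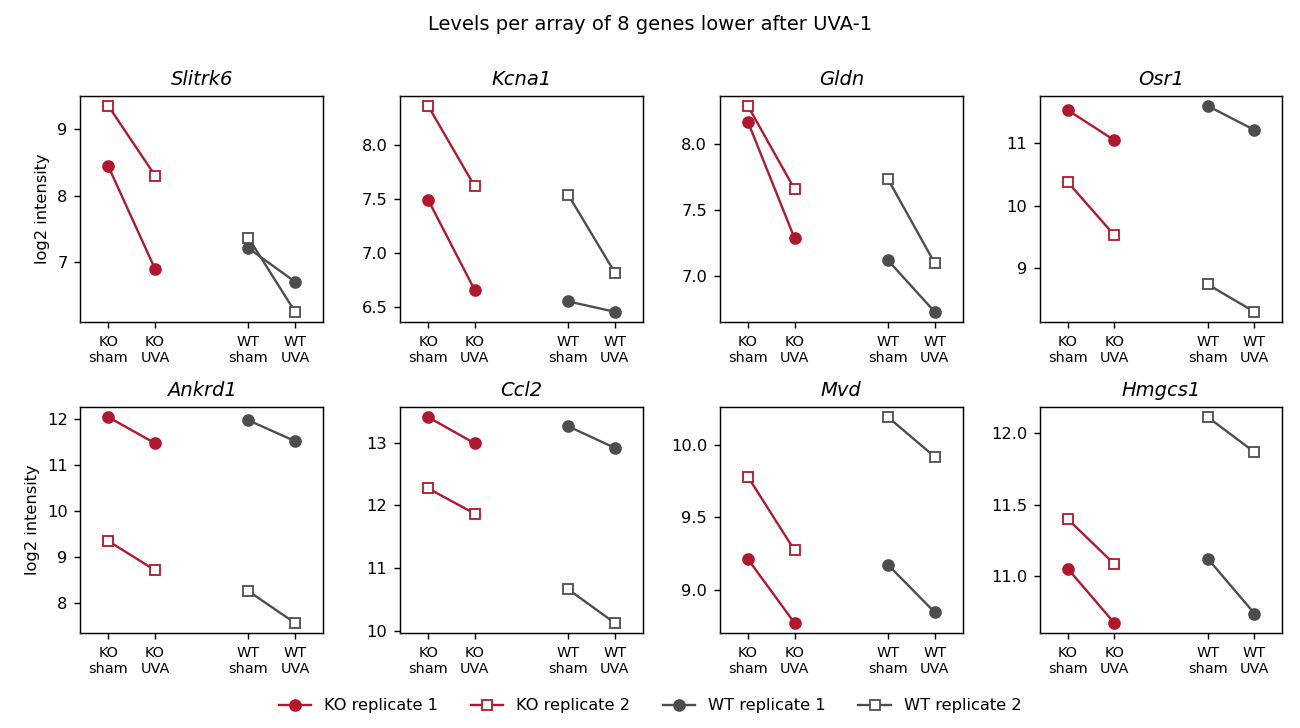
Log2 intensity of 8 genes that were lower after UVA-1, drawn as for the higher genes: KO in red on the left, WT in grey on the right, with a line for each replicate number. Every KO line slopes downward, the most in Slitrk6, and Ankrd1 shows parallel lines from starting levels of 4234 and 651.

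Fibroblast markers were lower along with several of these genes. Of the 12, 8 were lower in both pairs and 0 higher (66.7% and 0%, against 25.5% and 23.8% of all genes). The median difference was -0.11. On the log2 scale their summed intensity was 15.70 in sham and 15.59 in UVA for number 1, and 14.56 and 14.43 for number 2. Pdgfrb, a receptor of mesenchymal cells, differed by -0.28 in each pair. Extracellular matrix genes had a median of -0.11, with 20 of 28 lower in both pairs (71.4%, against 25.5% of all genes). In both pairs 0 were higher, and 0 were past 0.25. Osr1, Ankrd1, Ccl2, Fst and Mgp stood higher in number 1, the number with the higher fibroblast marker levels. Other lower genes, among them Slitrk6, Kcna1, Gldn, Tubb3, Ncam1 and Mvd, stood higher in number 2. The part of fibroblast RNA in the lower values of any of these genes was not tested. Melanocyte markers had a median difference of 0.022.

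The title of the series raises the question whether autophagy deficient melanocytes secrete factors of the senescence associated secretory phenotype (SASP) together with oxidised lipid mediators. The values here are mRNA levels in KO 6 h after UVA-1 against sham. They measure neither secretion nor lipid mediators, and do not compare KO with WT. More SASP factors were lower than higher: of 55, 25 were lower in both pairs and 6 higher. The shares were 45.5% and 10.9%, against 25.5% and 23.8% of all genes. Past 0.25 in both pairs were 0 upward and 2 downward (0% and 3.64%, against 1.17% and 1.49%), and the median was -0.079. Ccl2, the chemokine that attracts monocytes, read 10862 and 8123, then 4946 and 3741 (-0.41, SE 0.06; adjusted p = 0.00925 with dim genes left out and 0.139 over all genes). Ccl7, from the same chemokine cluster, differed by -0.29, Il33 by -0.78 and -0.11, Igfbp5 by -0.48, and Lif by -0.27, none past either test. The best known interleukin of the SASP, Il6, was bright only in number 1, where it read 327 and 432; in number 2 it read 30 and 26. Mmp13, a collagenase, differed by -0.06 and 0.28, and Cxcl10, an interferon-induced chemokine, by 0.14 and -0.75, so the pairs disagreed in sign. Cxcl2 differed by 0.655 and 0.04.

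Enzymes that make lipid mediators passed neither test. Ptgs2, cyclooxygenase 2, read 6676 and 7607, then 2872 and 2812 (0.08, 95% confidence interval -0.12 to 0.28). Pla2g4a, the phospholipase that frees arachidonic acid, differed by -0.04, Ptges, a prostaglandin E synthase, by 0.06, and Ptgis, prostacyclin synthase, by -0.23. Gpx4, which reduces lipid hydroperoxides in membranes, read 608 and 606, then 683 and 655. Of the 37 genes of the list, Slc7a11 alone was past 0.25 in both pairs (2.7%, against 1.17% of all genes). Of the CDK inhibitors that mark senescence, Cdkn2a differed by -0.12 and 0.07 and Cdkn2b by -0.155 and 0.07.

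Of 26 pigmentation genes, 13 were higher in both pairs and 4 lower (23.8% and 25.5% of all genes), 1 was past 0.25 in each direction, and the median was 0.047. Ednrb, the endothelin receptor of melanocytes, read 517 and 820, then 368 and 477 (0.52, SE 0.10, adjusted p = 0.295), and Mc1r, the melanocortin receptor, 1090 and 914, then 2570 and 2118 (-0.27, adjusted p = 0.335). Neither passed, with or without dim genes. Tyr differed by -0.05, Dct by 0.07, Tyrp1 by 0.08 and Mitf, their main regulator, by -0.19. Rab27a, which tethers melanosomes, differed by 0.32 and Rab32, which sorts their cargo, by -0.29. Kitl, the ligand of KIT, differed by 0.40 and Edn1, the ligand of Ednrb, by -0.34, at intensities of 101 to 164.

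Mitosis genes differed between the numbers: their median difference was 0.027 in pair 1 and -0.21 in pair 2. Ccna2, cyclin A, read 227 and 175, then 2112 and 1535 (-0.42, adjusted p = 0.329), and Anln, a protein of the cleavage furrow, 193 and 164, then 1719 and 1460. Both were far brighter in number 2 than in number 1 in sham and UVA alike. Ccnd1, cyclin D1, differed by -0.19 in each pair, Pcna, the replication clamp, by 0.27 and Ercc2, a repair helicase, by 0.29. Interferon genes also split by number, with medians of 0.12 and -0.12.

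Of 30 proteasome genes, whose products degrade tagged proteins, 20 were higher in both pairs and 1 lower. The shares were 66.7% and 3.33%, against 23.8% and 25.5% of all genes. The median was 0.12 (0.046 in pair 1 and 0.19 in pair 2). Psma1 alone was past 0.25 in both, at 0.38 and 0.27 (adjusted p = 0.295). Of 36 genes of the autophagy machinery, 17 were higher in both and 4 lower (47.2% and 11.1%), with 0 past 0.25 in both. Their medians were -0.003 in pair 1 and 0.11 in pair 2. Sqstm1 read 9350 and 10847, then 10088 and 11534 (0.20, SE 0.04, adjusted p = 0.306). Gabarapl1, an LC3 relative, differed by 0.20 and Ulk1, the kinase that starts autophagy, by 0.20; none of these passed. Of 29 lysosome genes, 10 were higher in both pairs and 7 lower (34.5% and 24.1%), with a median of -0.004. Among clock genes Cry1 and Nr1d2, both repressors in the clock, differed by 0.37 and 0.33 without passing.

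**Figure D4:**
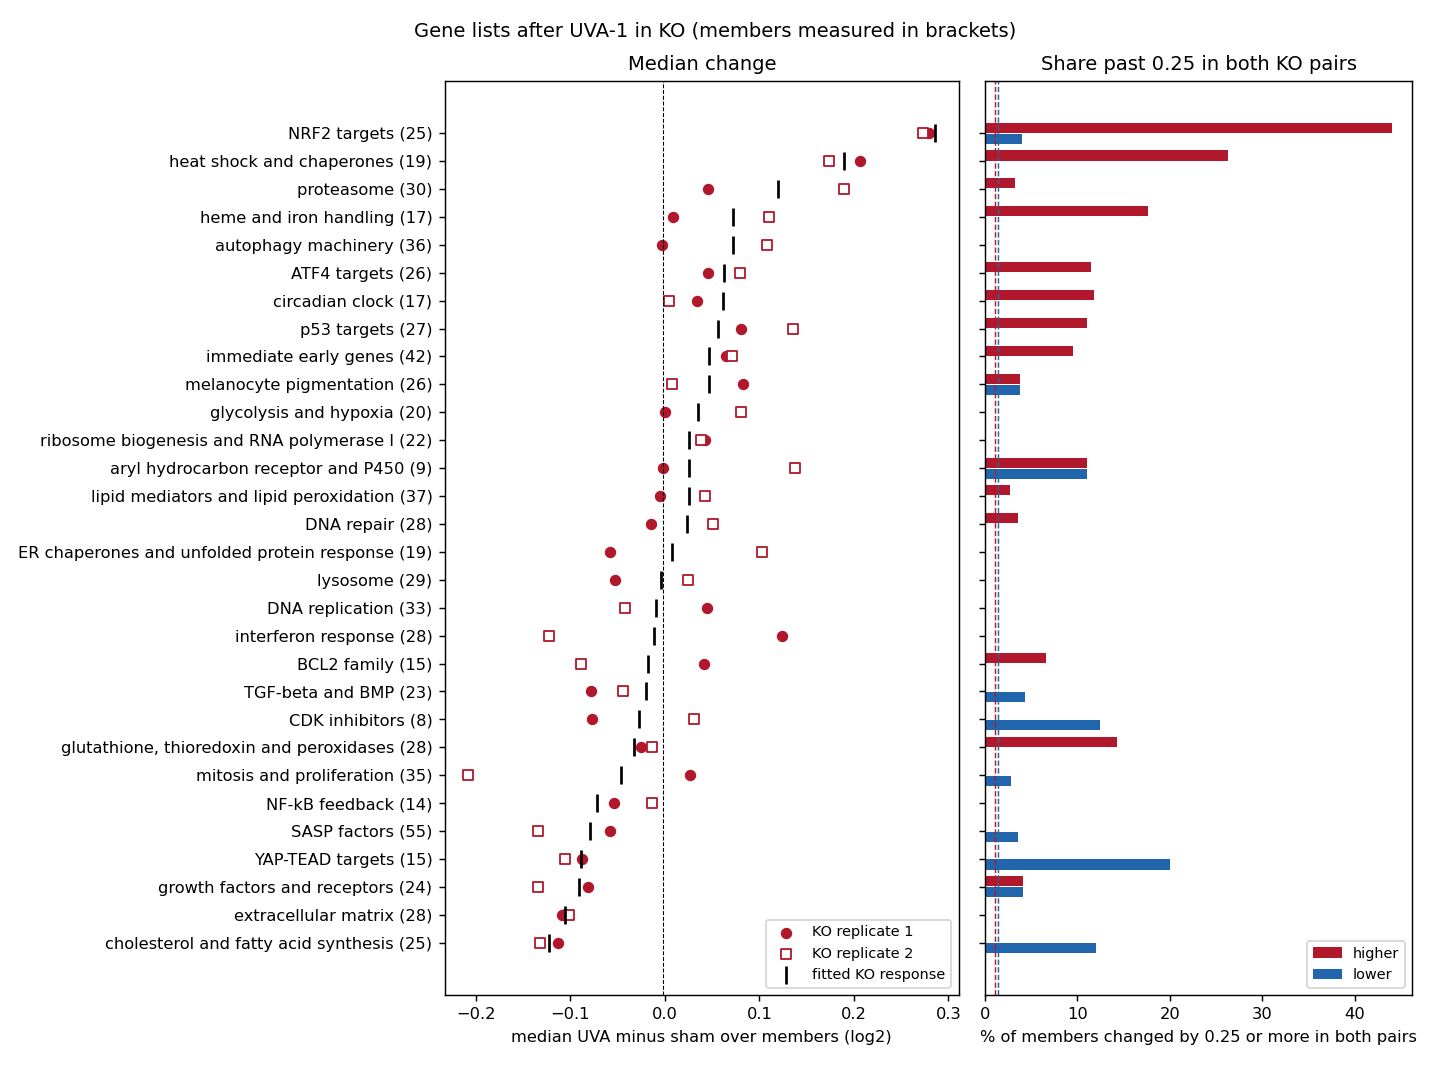
Left, the median UVA minus sham difference (log2) over the members of each gene list in KO pair 1 (filled circle), pair 2 (open square) and in the fit (bar); right, the share of members at least 0.25 higher (red) or lower (blue) in both pairs. Dashed lines mark all genes (median -0.002, 1.17% and 1.49%). By median, NRF2 targets (44% higher) and heat shock genes (26.3%) stand at one end, and sterol and fatty acid synthesis (median -0.12) at the other.

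The response of KO was then set beside that of WT, which had the same dose. The KO and WT responses were not paired by number in this comparison. The test of the difference between them called 0 of 22180 genes (0%) by limma at an adjusted p of 0.05 and 766 (3.45%) at an unadjusted p, and 0 genes under each other setting in which it was run (all but KO arrays only, where it cannot be fitted). Of the 33 genes, 32 had the same sign in all 4 pairs. These genes were chosen by their KO difference in this same fit, so equal signs in the 2 KO pairs follow from that choice. A small spread between the WT pairs also favours a call. Across all genes, 49.3% had the same sign in both KO pairs. The share of all genes with the same sign in all 4 pairs was not counted, so the 32 have no like background here. For Hspa1b the difference was 1.655 in KO and 1.62 in WT, and the interval of their difference ran from -0.28 to 0.35. Hspa1a was 1.53 in KO and 1.22 in WT (difference 0.31, 95% interval 0.05 to 0.57, adjusted p = 1). Slc7a11 was 1.28 and 1.52, Gclm 0.495 and 0.60, Hmox1 0.40 and 0.48, Sqstm1 0.20 and 0.26, and Ccl2 -0.41 and -0.44. The NRF2 list had a median of 0.29 in KO and 0.38 in WT; whether the list medians differ was not tested.

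Some named genes differed more between the genotypes, none past an adjusted p of 0.05 (all adjusted p = 1). Atf3 was 1.01 in KO and 0.47 in WT, where it read 422 and 546, then 443 and 659 (difference 0.54, interval 0.12 to 0.96). Its KO and WT sham arrays were alike, at 422 to 484. Dennd5b was 0.53 in KO and 0.15 in WT, and Zfp955a 0.49 and 0.07. In the other direction, Nqo1 was 0.47 in KO and 0.76 in WT, from WT sham intensities of 636 and 979, below the KO sham values of 1382 and 2657. Adh7 was 0.52 in KO and 0.75 in WT. Slitrk6 was -1.30 in KO and -0.81 in WT, from WT sham levels of 148 and 165, Kcna1 -0.79 and -0.41, Eya4 -0.58 and -0.18, and Abcd2 -0.71 and -0.26. The one gene of the 33 with opposite signs was 1700091H14Rik, which read 62 and 81, then 80 and 94 in WT and so was higher by 0.31 there.

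**Figure D5:**
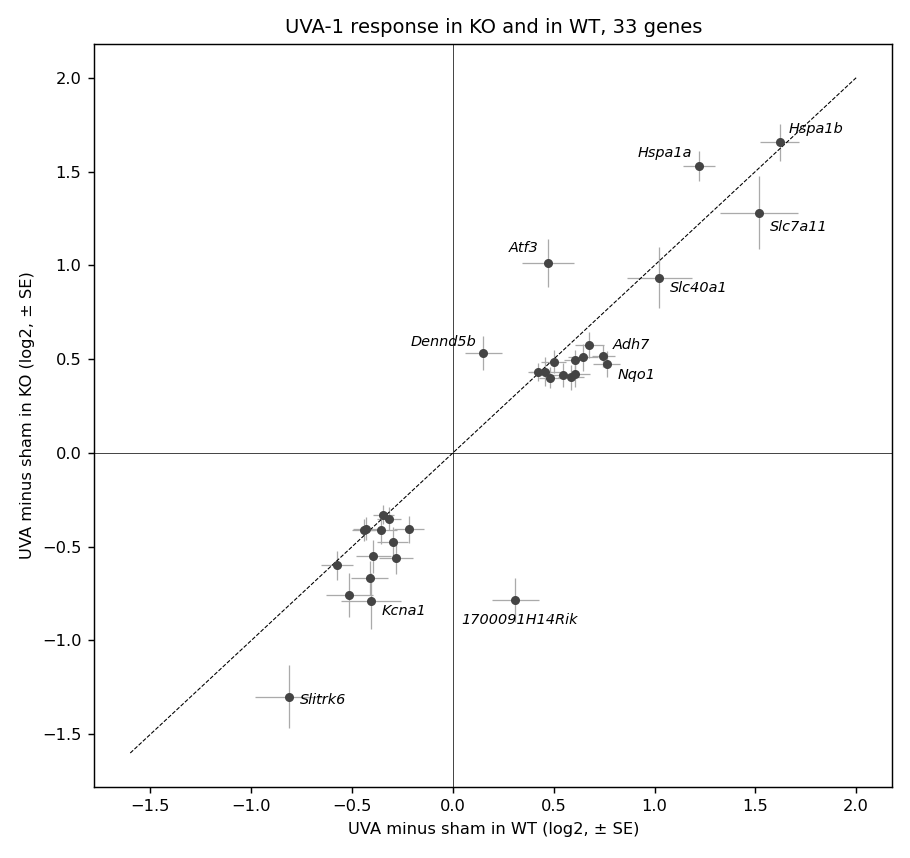
The UVA minus sham difference (log2, with its SE) in WT (horizontal) and KO (vertical) for the 33 genes that passed in KO with dim genes left out. All but 1700091H14Rik lie in the upper right or lower left; Atf3 lies above the line of equal response (1.01 in KO, 0.47 in WT) and Nqo1 below it (0.47 and 0.76).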

How the data were processed

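RNA from 8 samples was hybridised to 1-colour Affymetrix whole-transcript arrays, from 100 ng of total RNA each, per the labels' protocols. The authors deposited 1 intensity per probe set and array, made by RMA (background correction, quantile normalization, probe summarisation) in Affymetrix Expression Console 1.3.1.187, per the submitters' processing notes. They are linear whole numbers (7 to 22585), so log2 was taken here without a pseudocount, and rounding coarsens dim genes. RMA hides a shift common to most transcripts. The genome build is not given in the sources used here. Of 41345 probe sets, 23521 carry a single symbol, 1814 several and 16010 none; the brightest of a gene's probe sets was kept (1082 genes had several), giving 22180 genes, of which 21994 matched RefSeq by Entrez identifier.

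Differences were fitted with limma 3.58.1 in R 4.3.3 on all 8 arrays, with each combination of genotype and replicate number as a fixed block (2 residual degrees of freedom, prior degrees of freedom 6.26), eBayes with a trend, two-sided tests, and Benjamini-Hochberg adjustment over all genes at 0.05. The pairing comes from the shared numbers in the titles. Deviations from the group means of same-numbered arrays correlated at 0.80 to 0.92 between groups. Between genotypes they correlated at 0.80 to 0.82, near the 0.84 of KO sham and KO UVA and below the 0.92 of WT sham and WT UVA. In KO they therefore do not single out a culture within the genotype. The fit did not pair KO and WT responses by number and treated the 2 residual degrees of freedom as independent. SEs and intervals (95%) are from this fit. Named genes were the called ones, the 10 per direction with the largest smaller paired difference at a mean log2 of at least 6, up to 8 members of each list, the 5 per direction that differ most between the genotypes, Atg7 and Sqstm1. The genes compared, the lists, the block and the rules were chosen with earlier results of these data known. Alternatives were no block, a block by number only, KO arrays only, no trend, dim genes left out, the median probe set, 2 other normalizations, a pseudocount of 16 and each pair left out. Promoter windows are from RefSeq (GRCm38.p6).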

Additional observations from a re-analysis of the deposited data

Results flagged for a closer look

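Of the genes named above, 3 had both KO pairs on one side of 0 and both WT pairs on the other. Across all genes, 70 were past 0.25 in both KO pairs with both WT pairs of the opposite sign. In Olfr566 the KO response exceeded that of WT by 0.764 log2 units: the KO pairs differed by 0.54 and 0.50 and the WT pairs by -0.12 and -0.38, at intensities of 51 to 87. In 1700091H14Rik the KO response was below that of WT by a log2 difference of -1.094, with KO pairs at -0.85 and -0.72 and WT pairs at 0.39 and 0.23. In Tyrp1 the gap was 0.081, with KO pairs at 0.08 and 0.07 and WT pairs at -0.004 and -0.001. That gap is below the median SE of the KO difference over all genes, 0.111, and the WT pairs are next to 0. None of the 3 differences passed limma's interaction test (adjusted p = 1 each).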

How the results depend on the processing

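The count of genes called in KO depended on the setting, while the signs of the named genes mostly held. Against 2 higher and 0 lower genes, limma called 0 and 0 without the replicate block (348 genes at an unadjusted p under 0.05), with KO arrays only, and without a trend. It called 18 and 15 with dim genes left out (prior degrees of freedom 10.8), 10 and 4 with arrays centred on their medians, and 6 and 1 after a second quantile normalization; the 14 and 7 genes of the last 2 settings are all among the 33. The number block, the median probe set and the pseudocount kept 2 and 0. Leaving out any one pair gave 0 to 0 genes higher (1269 to 1425 at an unadjusted p under 0.05), with 1 residual degree of freedom. The interaction, which cannot be fitted with KO arrays only, called 0 genes in each setting in which it was run. Of 130 named genes, 118 kept their sign in all 13 other settings and 128 in those that keep every replicate. After a second quantile normalization Fth1 stood at -0.003 and Asns at -0.013. With a pair left out the log2 difference ranged from -0.076 to 0.378 for Trib3, -0.079 to 0.09 for Asns, -0.753 to 0.137 for Cxcl10, -0.206 to 0.402 for Il6, -0.058 to 0.281 for Mmp13, -0.030 to 0.188 for Ptgs2, -0.17 to 0.083 for Pla2g4a, -0.12 to 0.027 for Tyr, -0.119 to 0.074 for Cdkn2a, -0.155 to 0.069 for Cdkn2b and -0.048 to 0.010 for Atg7. The causes of these shifts were not tested. Signal over background limits the dim genes, whose values are coarse whole numbers.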
